A study of Mus musculus with 4 samples.

Results

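The genes described are 5 subunits of eukaryotic initiation factor 3 (eIF3), namely Eif3b, Eif3c, Eif3d, Eif3h and Eif3m, chosen by name from the 4878 genes of a ribosome profiling table from mouse embryonic fibroblasts. Cells at passages 5 to 8 received, with Lipofectamine RNAimax, the siRNA labelled Si-Negative control or the one labelled Si-eIF1A (X+18), and each group has 2 libraries. RNase I leaves the RNA that ribosomes cover, so each sequenced fragment, or footprint, marks a ribosome, and the table counts the 5' UTR, called the leader here, apart from the coding sequence. Footprints depend on how much of an mRNA is present as well as on how it is translated, and RNA-seq was not used here. The labels do not say whether replicates were separate cultures, so part of the spread between libraries behind the p-values may be technical. For the leader and the leader to coding ratio, the main test took that spread from the trend over all genes tested. A gene's own spread between libraries therefore does not enter its p-value in those main tests. Eif1ax and Eif1a, the mouse genes for the targeted factor, were not analysed here, so the knockdown was not checked in these libraries.

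eIF3 is the largest of the initiation factors. It binds the small ribosomal subunit, helps to recruit the mRNA and stays with the subunit while it scans the leader for a start codon, the step in which eIF1A also takes part. Its subunits fall into an octamer of PCI and MPN domain proteins, to which eIF3c, eIF3h and eIF3m belong, and peripheral subunits such as eIF3b, a scaffold with a propeller domain, and eIF3d, which can contact the mRNA cap. Of the 14 mouse eIF3 genes looked for, 7 were in the table, the 5 above and Eif3a and Eif3e. The other subunits were not analysed here.

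The listed genes held 458191 to 617663 reads in 3 of the libraries and 280649 in knockdown replicate 2. Leader reads made up 11.6% and 13.7% of them in the controls, while with eIF1A siRNA they made up 20.0% and 32.4%. Of 11 fibroblast markers 3 were in the table, Vim, S100a4 and Fn1, with summed coding values of 3853 and 5504 in the controls and 3454 and 2871 in the knockdown libraries, mostly from Fn1. They did not move together, since S100a4 fell by 2.92 on the log2 scale (limma adjusted p = 2.4e-05), while Vim (0.38, limma adjusted p = 0.481) and Fn1 (-0.74, limma adjusted p = 0.113) did not pass. Pericyte markers, 3 of 5 in the table, summed to 413 and 617 in the controls and 176 and 155 in the knockdown libraries. Of these, Notch3 (log2 -2.45, limma adjusted p = 0.000147) and Cspg4 (-1.68, limma adjusted p = 0.00113) fell. Mcam (-0.60, limma adjusted p = 0.224) did not pass, and its groups overlapped. Epithelial and neuronal markers, 1 of 5 (Dsp) and 1 of 3 (Map2) in the table, were lower in both knockdown libraries, at 109 and 146 against 82.4 and 71.8 for Dsp and at 65.9 and 55.3 against 15.3 and 6.38 for Map2. Markers of endothelial cells, leukocytes, muscle, adipocytes and erythroid cells were not analysed here. The part of these differences in the eIF3 results was not tested. In bulk footprint libraries a smaller share of one cell type cannot be told apart from less RNA per cell or less translation of that RNA.

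All 5 subunits carried more coding footprints in both eIF1A siRNA libraries than in either control library, as did 26% of all genes tested. The set was chosen with earlier results of these data known, so this is a description and not independent support. Their changes lay between 0.69 and 1.28 on the log2 scale, while the median of all 4619 genes tested was -0.16. Relative to that median they were 0.85 to 1.44 higher. Eif3b and Eif3h rose by the test across all genes, by which 10.6% of genes rose, and Eif3c, Eif3d and Eif3m did not pass it. Values were compared as log2 of the normalized reads plus 1, a scale that understates changes of genes with few reads, with limma and a Benjamini-Hochberg adjusted threshold of 0.05.

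**Figure D1:**
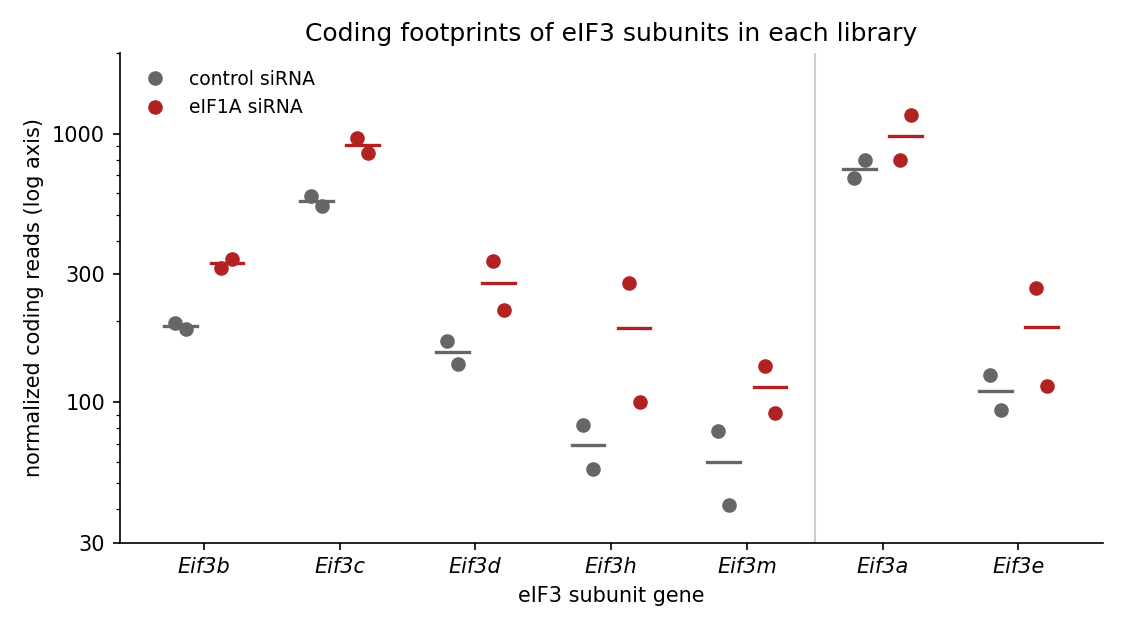
Normalized coding reads (log axis) of 7 eIF3 subunit genes, dots being libraries and short lines the mean of each group's 2 libraries (grey, control siRNA; red, eIF1A siRNA). For the 5 genes left of the vertical line both red dots lie above both grey dots, while for Eif3a and Eif3e the groups overlap.

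The leader start of 4 of the 5 genes was read from the RefSeq promoter table of GRCm38.p6, to show whether genes of the translation machinery that moved the same way share a pyrimidine tract there. mRNAs for ribosomal proteins and many translation factors begin with such a tract, the terminal oligopyrimidine motif. Each line gives 10 bases before the annotated start and 15 from it, 5′ to 3′ on the gene's strand, with the longest unbroken run of C or T, or each run tied for it, in capitals.
Eif3b (chr5:140419295-140419319, plus strand): ggcgcgcggtgaCTTCTgggagtcg
Eif3c (chr7:126566352-126566376, minus strand): ctgCTCagagggaCTCggcagCTTa
Eif3d (chr15:77970810-77970834, minus strand): agggccaTTTacgacagcgctggtc
Eif3m (chr2:105017013-105017037, minus strand): cggtcggcgtgTTTCTggatcggag

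The longest run was 5 bases in Eif3b and Eif3m, beginning at base 3 and base 2 of the annotated transcript. It was 3 bases in Eif3c, which has 3 such runs, and in Eif3d. The Eif3d run and the first Eif3c run lie before the annotated start, outside the annotated transcript. A run of at least 5 bases was present in 40.7% of all 32851 windows of the same length, and the median of the longest run was 4 bases. Runs before the start are counted there too, so these values are no background for the leader alone. The 4 windows differ in their longest run, and a short run says only that no longer one is in that window. Eif3h was not matched in the table.

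Among the peripheral subunits, Eif3b (chromosome 5, 140419305 to 140443358, mm10) had 198 and 187 normalized coding reads in the controls, always given as replicate 1 then 2, and 316 and 342 in the knockdown libraries. The libraries of a group lay close together and the groups were well apart. The log2 change was 0.77 ± 0.28 (SE, n = 2 per group, limma adjusted p = 0.0471). This call ended when either library of either group was left out, with an adjusted p of up to 0.239 and log2 changes of 0.72 to 0.83, and when 1 read was taken off every value (adjusted p = 0.0527).

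Eif3d (chromosome 15, 77958998 to 77970824) had 169 and 139 normalized coding reads in the controls and 337 and 220.3 in the knockdown libraries. Both knockdown values were above both controls, with knockdown replicate 1 the higher. The log2 change of 0.82 ± 0.30 (SE) missed the threshold by a small margin (limma adjusted p = 0.0503). Without knockdown replicate 1 the log2 change was 0.52 (limma adjusted p = 0.254), and without knockdown replicate 2 it was 1.13 (limma adjusted p = 0.00714).

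Within the octamer, Eif3c (chromosome 7, 126546911 to 126566366) had 585 and 538 normalized coding reads in the controls and 962 and 849 in the knockdown libraries. Here too the groups were apart by more than the spread within each, with means of 561 ± 33.3 and 906 ± 79.9 (SD, n = 2). The log2 change was 0.69 ± 0.29 (SE, limma adjusted p = 0.0827), so Eif3c did not pass.

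Eif3h (chromosome 15, 51786563 to 51865461), an MPN domain subunit, had the largest change and the least even one. It had 82.4 and 56.2 normalized coding reads in the controls, 278 in knockdown replicate 1 and 101 in knockdown replicate 2. The log2 change was 1.28 ± 0.40 (SE, limma adjusted p = 0.0239), which placed it at percentile 92.8 of all genes tested. It was 0.56 without knockdown replicate 1 (limma adjusted p = 0.204) and 2.01 without knockdown replicate 2 (limma adjusted p = 2.41e-07), so its size rests on 1 library. The call also ended without control replicate 1 (1.56, limma adjusted p = 0.123) or control replicate 2 (1.01, limma adjusted p = 0.363).

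Eif3m (chromosome 2, 104999656 to 105017027), a PCI domain subunit, had 78.1 and 41.5 normalized coding reads in the controls and 136 and 91.0 in the knockdown libraries. The control values were 109 and 48 whole reads, so that the lower control rests on few counts. The log2 change of 0.95 ± 0.35 (SE) missed the threshold by a small margin (limma adjusted p = 0.0502). Without control replicate 2 it was 0.51 (limma adjusted p = 0.507), and without knockdown replicate 2 it was 1.24 (limma adjusted p = 0.00208).

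In total, 2 of the 5 subunits rose, where 10.6% of all genes tested rose by the same test. Both knockdown libraries were above both controls for 5 of 5, against 26% of all genes. Eif3a and Eif3e are outside this set of 5, and with them the counts were 2 of 7 and 5 of 7. Since the 5 were chosen with earlier results of these data known, 5 of 5 is not an independent count. For 1 gene taken by itself, this design allows an exact permutation p (two-sided) of 0.33 at the lowest. The number of subunits called depended on the scaling. The main scaling left the median gene at -0.16, and TMM factors left it at 0.01. All 5 passed with TMM factors, where 17% of genes rose, with quantile normalization (15%), with the total of listed reads (19.7%) and with edgeR's quasi-likelihood test (19.5%) and the DESeq2 Wald test (10.6%) on whole reads. With 1 read taken off every value, 1 of 5 passed, against 8.74% of genes. Of all 1352 genes called in the main test 488 were higher, and with TMM factors 784 of 1555.

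**Figure D2:**
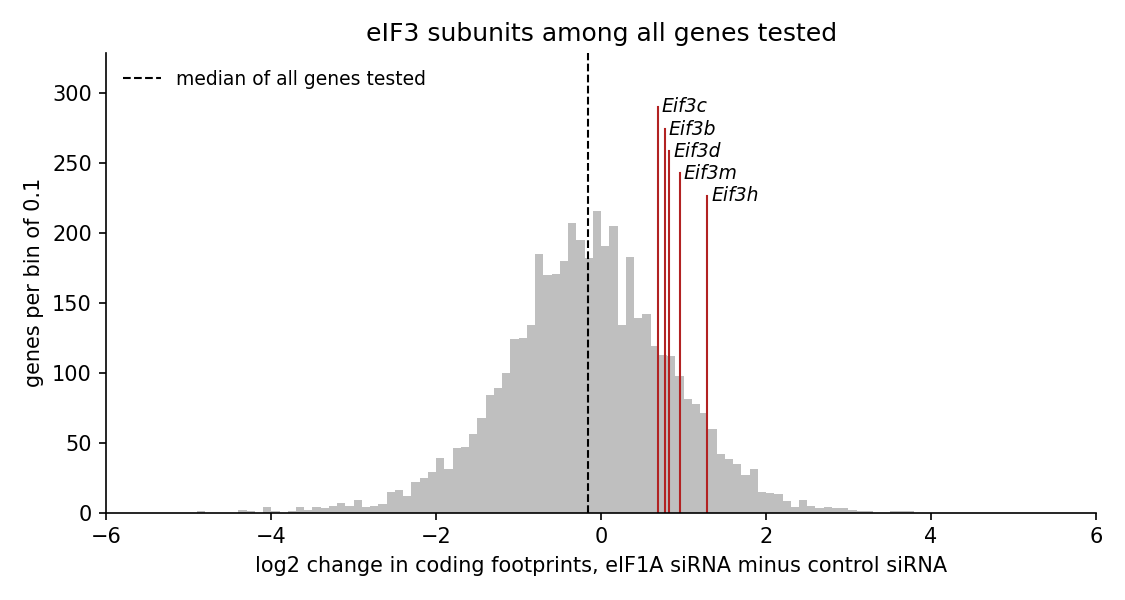
Histogram of the log2 change in coding footprints, eIF1A siRNA minus control siRNA, over the 4619 genes tested, with red lines at the 5 subunits and a dashed line at the median of all genes (the height of a red line has no meaning). The subunits lie between 0.69 and 1.28, right of the median of -0.16 and inside the range of many other genes.

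None of the 5 was extreme among all genes. Eif3c, the lowest, lay at percentile 80.8 with 887 genes changed further upwards, and Eif3b, Eif3d and Eif3m lay at percentiles 82.9, 84.2 and 87.1. Eif3h had 331 genes above it.

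In the remaining subunits of the table the groups overlapped, and neither passed the main test. Whether they differ from the 5 was not tested. Eif3a (chromosome 19, 60761116 to 60790693), the largest subunit and a scaffold of the octamer, had 683 and 801 normalized coding reads in the controls and 799 and 1172 in the knockdown libraries. The lower knockdown value fell just under the higher control, and the log2 change, 0.39 ± 0.31 (SE, limma adjusted p = 0.362), did not pass. Eif3e (chromosome 15, 43250040 to 43282736), another PCI domain subunit, had 267 and 115 in the knockdown libraries, and the controls had 127 and 93.3. Its log2 change was 0.68 ± 0.36 (SE, limma adjusted p = 0.165). Without knockdown replicate 1 it was 0.08 (limma adjusted p = 0.895), and without knockdown replicate 2 it was 1.29 (limma adjusted p = 0.00153). Eif3e passed with TMM factors (limma adjusted p = 0.0487), the total of listed reads (limma adjusted p = 0.0225) and edgeR (adjusted p = 0.0199), and did not pass with quantile normalization or DESeq2.

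The subunits were then compared with each other by the log2 ratio of their coding values within each library, for all 10 pairs of the 5. In 10 of 10 pairs the ratios of the control and knockdown libraries overlapped. Differences between the group means ran from 0.05 to 0.60 in size. The widest was Eif3c over Eif3h, with 2.81 and 3.24 in the controls and 1.79 and 3.07 in the knockdown libraries, a difference of -0.60. It turned sign without knockdown replicate 1 (0.04) and was -1.23 without knockdown replicate 2. Eif3b over Eif3c was nearly level, at -1.56 and -1.52 in the controls and -1.60 and -1.31 in the knockdown libraries. These data thus show no pair whose balance shifted beyond the spread between libraries, and 2 libraries per group leave shifts of this size undecided. Levels of different subunits were not ranked per length, since coding lengths were not used here.

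The subunits also differed in how far the libraries of a group lay apart. On the log2 scale, knockdown replicate 2 minus knockdown replicate 1 was -1.46 for Eif3h and -1.21 for Eif3e, -0.61 for Eif3d and -0.58 for Eif3m, -0.18 for Eif3c, 0.11 for Eif3b and 0.55 for Eif3a. The median of all genes was -0.29 (quartiles -0.71 and 0.06), which puts Eif3h at percentile 4.55 and Eif3a at percentile 94.3. In the control pair, replicate 2 minus replicate 1 was -0.90 for Eif3m, -0.54 for Eif3h, -0.44 for Eif3e and -0.28 for Eif3d, against -0.12 for Eif3c, -0.08 for Eif3b and 0.23 for Eif3a. The same 3 subunits, Eif3a, Eif3b and Eif3c, were thus the highest in both pairs. Knockdown replicate 2 was also the library with the fewest reads and the highest leader share, and the part of either in these differences was not tested.

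Of 23 initiation factors outside eIF3 that were tested, 7 rose and 16 did not pass, against 10.6% of all genes that rose. Their median log2 change was 0.70, against 0.82 for the 5 subunits and -0.16 for all genes. Both knockdown libraries were above both controls in 15 of the 23, against 26% of all genes. Eif1, the start codon stringency factor that contacts eIF3c, changed most, from 330 and 342 normalized coding reads to 1579 and 1459 (log2 2.17 ± 0.29 SE, limma adjusted p = 0.000102). Eif5a, a factor of elongation and termination, rose by 1.22, Eif4a1, the helicase of the cap-binding complex, by 1.21, and Bzw1, a regulator of start codon choice, by 1.09. Reads of Eif1 may be shared with its near-identical copy Eif1b, and how such reads were counted was not stated. Eif4a1 was uneven between the knockdown libraries, as Eif3h was, with 1095 and 431 in knockdown replicates 1 and 2.

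The proteasome lid and the COP9 signalosome are the other complexes built from PCI and MPN domain subunits. Of 8 lid genes tested, 1 rose, Psmd8 (log2 1.35, limma adjusted p = 0.00407), and 7 did not pass, with a median of 0.70. Of 8 signalosome genes, 1 rose, Cops8 (log2 1.75, limma adjusted p = 0.00435), and 7 did not pass, with a median of 0.52. For each complex 1 of 8 is near the 10.6% of all genes that rose. Both knockdown libraries were above both controls in 5 of 8 lid genes and 5 of 8 signalosome genes, against 26% of all genes, and whether eIF3 differs from either complex was not tested.

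**Figure D3:**
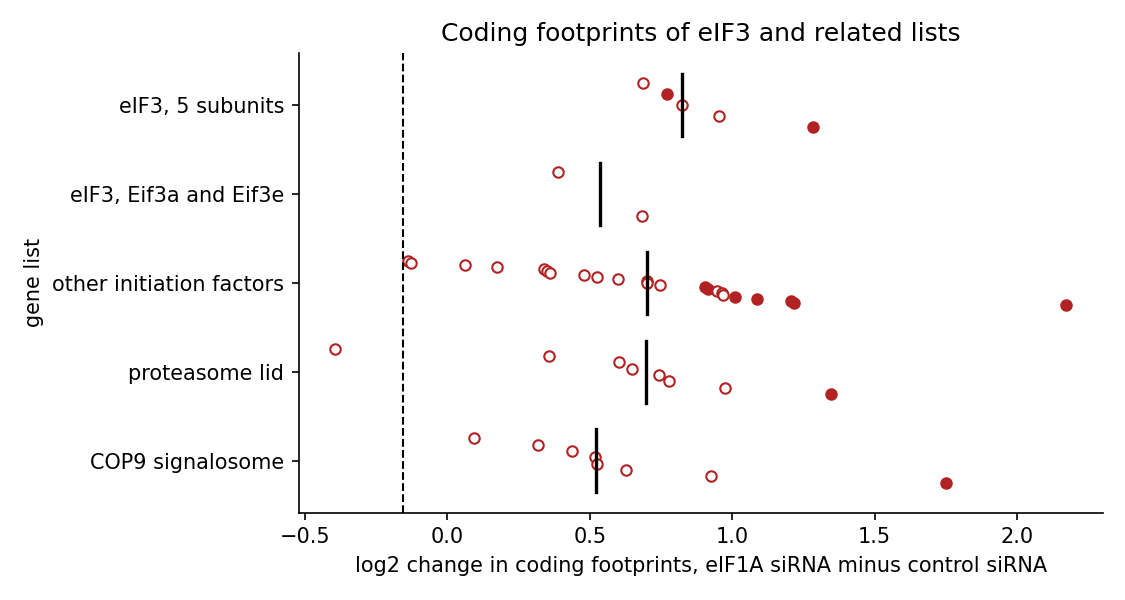
Log2 change in coding footprints, eIF1A siRNA minus control siRNA, of each tested gene of 5 lists, with filled dots for genes past the limma threshold, black lines at list medians and a dashed line at the median of all genes. The list medians lie at 0.82 (5 eIF3 subunits), 0.54 (Eif3a and Eif3e), 0.70, 0.70 and 0.52, to the right of -0.16.

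The genes with a coding pattern most like the mean of the 5 subunits were Usp10, Phb2, Sdhb, Tmem209 and Cct2. Likeness was the distance between log2 values over the 4 libraries, with each gene centred on its own mean, and 1858 genes averaging 50 normalized reads or more were compared. Usp10, a deubiquitinase, was nearest at 0.08, with 50.2 and 36.3 in the controls and 92.6 and 65.4 in the knockdown libraries. Cct2, a chaperonin subunit, was the fifth at 0.13. The subunits' own distances from their mean were 0.12 for Eif3d, 0.37 for Eif3m, 0.38 for Eif3c, 0.53 for Eif3b and 0.76 for Eif3h. These cannot be set against those of the 5 nearest genes, which were picked as the closest of 1858, while each subunit is part of the mean.

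On the leader, 2 of the 5 subunits had enough reads for a test. Eif3d and Eif3c gained leader footprints in the knockdown libraries, Eif3m had a few reads, and Eif3b and Eif3h had the table's lowest value, 1 read, in all 4 libraries. The sources used here do not say if 1 read there stands for 0 or 1, and 25.5% to 31.2% of all genes had this value on the leader of a given library. Only Eif3c and Eif3d reached the mean of 10 normalized leader reads needed for the test, as did 2101 of all genes, whose median log2 change was 1.09.

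Eif3d had 10.7 and 9.51 normalized leader reads in the controls, from 15 and 11 whole reads, and 64.1 and 112 in the knockdown libraries, from 63 and 70. Both knockdown libraries were several times above both controls. The log2 change of 2.95 ± 0.51 (SE, limma adjusted p = 3.04e-07) exceeded that of 95.4% of the genes tested. It passed in all 14 alternatives that gave it a value, with log2 changes from 1.88 to 3.34 and adjusted p-values of limma, edgeR or DESeq2 of at most 0.00884. The lowest came with TMM factors taken from leader reads, which moved the median of all genes to -0.08.

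Eif3c had 4.30 and 12.96 normalized leader reads in the controls, from 6 and 15 whole reads, and 29.5 and 49.5 in the knockdown libraries, from 29 and 31. The groups did not overlap, though the controls differed among themselves by a wide margin. The SE does not reflect that margin, since limma gave every gene on the leader the trend's variance. The log2 change was 2.19 ± 0.55 (SE, limma adjusted p = 0.000455), at percentile 85.3. Eif3c met the minimum only through its knockdown libraries, with a control mean of 8.63 and a knockdown mean of 39.5, so a difference upwards was set in part by the filter. The call ended with the DESeq2 Wald test (1.06, adjusted p = 0.273) and without control replicate 1 (1.49, limma adjusted p = 0.229). Eif3a, with 15 and 15 whole leader reads in the controls and 41 and 46 in the knockdown libraries, changed by 2.14 ± 0.52 on the log2 scale (SE, limma adjusted p = 0.000302). It too lost its call with the DESeq2 Wald test (1.08, adjusted p = 0.154) and without control replicate 1 (2.01, limma adjusted p = 0.0931).

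Among all genes tested on the leader 44% rose, and in 67.4% both knockdown libraries were above both controls, as they were for Eif3d and Eif3c. Since the filter let Eif3c in only through the group where it is high, the pair gives no count for the complex. Eif3d also rose where leader reads were scaled by themselves, with TMM factors (18.8% of genes rose), quantile normalization (21.5%) and the total of listed reads (21%). It rose with edgeR (20.3%) and DESeq2 (6.81%) too. Eif3c passed in the same runs apart from DESeq2, but it had to meet a minimum in each, so no weight is put on those calls. Of the genes called on the leader 924 of 983 were higher, and with TMM factors 373 of 839. Eif3m had 1 and 1 leader reads in the controls and 3 and 5 in the knockdown libraries, too few for a fold change.

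The share of a gene's footprints on its leader does not depend on the scaling between libraries. For Eif3d it was 5.98% (95% exact Clopper-Pearson interval 3.38 to 9.67) and 6.40% (3.24 to 11.2) in the controls. It was 16.0% (12.5 to 20.0) and 33.7% (27.3 to 40.5) in knockdown replicates 1 and 2. The knockdown intervals lie above the control intervals, and those of the 2 knockdown libraries do not overlap each other. The same held for all listed genes together, at 11.6% and 13.7% in the controls and 20.0% and 32.4% in the knockdown libraries. For Eif3c the share was 0.730% (0.268 to 1.58) and 2.35% (1.32 to 3.85) in the controls and 2.97% (2.00 to 4.24) and 5.51% (3.77 to 7.72) in the knockdown libraries, where the interval of control replicate 2 overlaps those of both knockdown libraries. The intervals cover counting error only.

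**Figure D4:**
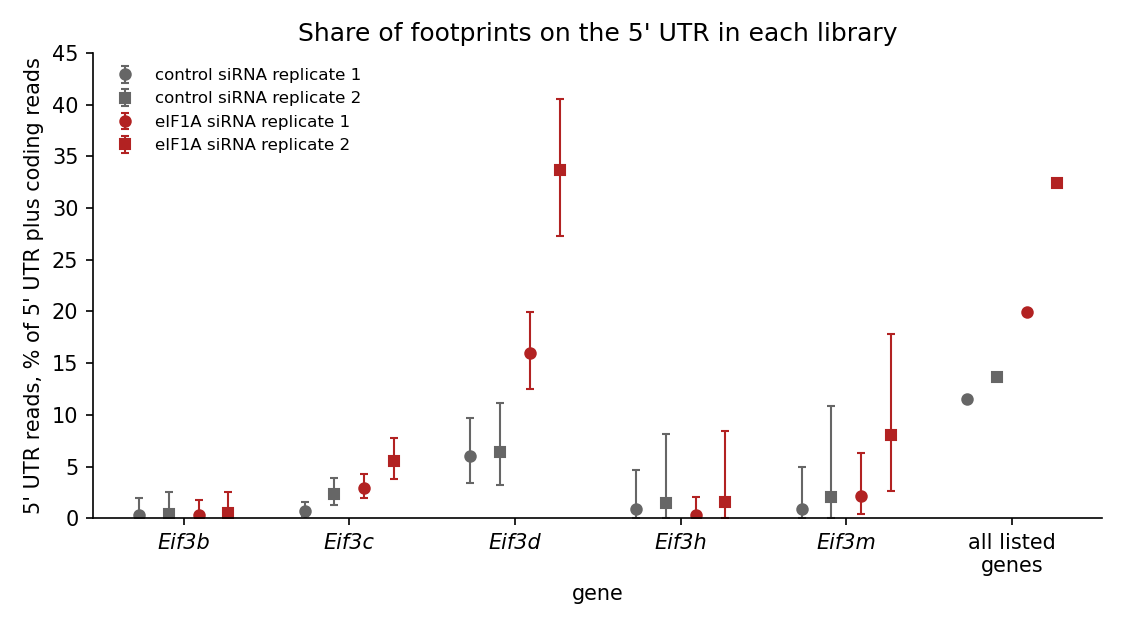
Leader (5' UTR) reads as a percentage of leader plus coding reads in each library for the 5 subunits and for all listed genes together, with exact 95% counting intervals (grey, control siRNA; red, eIF1A siRNA; circles, replicate 1; squares, replicate 2). Eif3d rises from about 5.98% and 6.40% to 16.0% and 33.7%, while Eif3b and Eif3h rest on 1 leader read in every library.

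Eif3b and Eif3h had 1 leader read beside 214 to 311 and 63 to 273 coding reads. The bounds below take this read as observed, though it is the lowest value present and may stand for none. For Eif3b the upper bounds of the 95% Clopper-Pearson interval, which covers counting error only, were 1.99% and 2.54% in the controls and 1.77% and 2.56% in the knockdown libraries. For Eif3h the upper bounds were 4.71% and 8.16% in the controls and 2.02% and 8.40% in the knockdown libraries. With the libraries of a group pooled, Eif3d lay at percentile 41.8 of all genes by its leader share in the controls and at percentile 52.5 in the knockdown libraries. Eif3b and Eif3h are not ranked, since with 1 leader read their share follows their coding reads. The pooled leader share of the median gene was 8.93% with control siRNA and 20.0% with eIF1A siRNA. Leader lengths were not used here.

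The ratio of leader to coding footprints takes out changes that both regions share. Eif3d had a log2 change in this ratio of 2.12 ± 0.74 (SE, limma adjusted p = 0.0277), and Eif3c had 1.50 ± 0.71 (SE, limma adjusted p = 0.108). Here too Eif3c met the leader minimum only through its knockdown libraries, so its difference upwards was set in part by the filter. Eif3d rose and Eif3c did not pass, where 20.5% of 1907 genes rose and the median of all genes was 1.23. Relative to that median the differences were 0.89 for Eif3d and 0.27 for Eif3c. The call of Eif3d ended when each region was scaled by itself, at 0.89 with TMM factors (limma adjusted p = 0.184), where 2.17% of genes rose, 0.81 with quantile normalization (limma adjusted p = 0.242), where 2.52% rose, and 0.91 with the total of listed reads (limma adjusted p = 0.185), where 4.21% rose. Without control replicate 1 or 2 the log2 change of Eif3d was 2.06 and 2.18, and without knockdown replicate 2 it was 1.42. With a single library left in a group, such fits do not decide whether the call holds. Of the genes called in the ratio 391 of 392 were higher, and with TMM factors 39 of 64.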

How the data were processed

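Footprint reads were analysed in 4 ribosome profiling libraries of mouse embryonic fibroblasts. The submitters' processing notes name mm10 and, without versions or order, DESeq2, HTSeq, TopHat2, Bowtie and cutadapt. The values the authors deposited are a signal, normalized reads by gene and by region per the file headers. Every value was a whole multiple of 1 value per library (100% within 0.001 reads), so whole reads were recovered. No value lay below 1 read, so the recovered reads may include a read that was added or set as the lowest value. The deposited values were tested as log2(value + 1) with limma 3.58.1 in R 4.3.3 (empirical Bayes with trend, Benjamini-Hochberg over all genes tested, mean of at least 10), for coding, leader and leader to coding ratio. For the last 2, limma gave every gene the trend's variance. edgeR 4.0.16 and DESeq2 1.42.0 on whole reads were alternatives. Procedures were tested on simulated data. Coordinates are from RefSeq GRCm38.p6, where 5 of 5 genes matched by symbol. The genes, lists and the rule for naming genes (the subunits, up to 4 called genes per list with the smallest adjusted p, and the 5 nearest patterns) were chosen with earlier results of these data known. Density per kilobase of coding sequence was not computed, since coding lengths were not used here. Deviations of same-numbered libraries from their group means correlated at 0.261 over coding values and -0.061 over leader values.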

Additional observations from a re-analysis of the deposited data

How the results depend on the processing

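No log2 change of the 5 subunits in coding reads, nor of Eif3c and Eif3d on the leader and in the ratio, turned its sign in any alternative run. Ratios between subunits, which have no test, did turn in some, as Eif3b over Eif3c did without knockdown replicate 2 (0.08 to -0.06). In coding footprints Eif3c moved past the threshold with TMM factors (0.85), quantile normalization (1.09), the total of listed reads (0.94), edgeR (0.86), DESeq2 (0.86) and the replicate block (0.69). Eif3d did so at 0.99, 1.12, 1.07, 1.00, 1.01 and 0.82 in the same order and Eif3m at 1.12, 1.16, 1.20, 1.08, 1.09 and 0.95, and both also with a pseudocount of 5 (0.81 and 0.91), without a filter on low values (0.82 and 0.95) and with a mean of at least 50 (0.82 and 0.95). With 1 read taken off, Eif3b had 0.77 and no call. Leaving out 1 library at a time gave 0.72 to 0.83 for Eif3b, 0.52 to 1.13 for Eif3d, 0.56 to 2.01 for Eif3h and 0.51 to 1.40 for Eif3m. On the leader Eif3c lost its call with DESeq2 (1.06) and ranged from 1.49 to 2.89 without single libraries. In the ratio Eif3d lost its call with TMM factors (0.89), quantile normalization (0.81), the total of listed reads (0.91) and no filter (2.12), and ranged from 1.42 to 2.82 without single libraries. Eif3c, which met the leader minimum only through its knockdown libraries, passed with the replicate block (1.50). It ranged from 0.74 to 2.26 without single libraries.

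Over all genes, calls in coding reads went from 1352 to 788 with a mean of at least 50 and to between 11 and 1729 without single libraries. On the leader they went from 983 to 232 with that filter, to 365 with DESeq2 and to between 189 and 1396 without single libraries. In the ratio they went from 392 to 64 with TMM factors, 73 with quantile normalization, 115 with the total of listed reads, 110 with that filter and 862 with the replicate block. Without control replicate 1 or 2 limma called 0 genes in the ratio (121 and 194 at an unadjusted p under 0.05), and the highest was 1168. The cause of these shifts was not tested. The replicate numbers are shared names only, as nothing in the labels pairs the libraries, and the replicate block raised the calls in coding reads to 1921. The filter of at least 50 left no value for Eif3c and Eif3d on the leader and in the ratio. The planned density per kilobase was not run. Whole reads of 48 to 134 for Eif3m and the single leader reads of Eif3b and Eif3h limit what these libraries can show.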
